A study of Arabidopsis thaliana with 24 samples.

Results

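Late embryogenesis abundant (LEA) proteins, the dehydrins among them, were followed here through the imbibition of Arabidopsis thaliana seeds as the transcripts of 47 loci from 9 subfamilies. The loci were a fixed list of the LEA family, looked up by gene ID in the authors' deposited table of TPM (transcript levels scaled to one fixed sum per library). Of the 47 loci, 44 had a row among the 23826 genes of the table, and AT4G13230, AT2G33690 and AT3G53770 are not analysed here. A level of at least 1 TPM in at least 3 libraries was reached by 42 of them and by 18481 genes in all. The other members with a row, AT5G53820 and AT5G27980, never exceeded 0.310 TPM and 0.614 TPM and were not tested. By subfamily the tested members were 2 of LEA_5, 3 of LEA_2, 3 of LEA_1, 12 of LEA_4, 5 of SMP (seed maturation protein), 10 dehydrins, 2 of PvLEA18, 3 of LEA_3 and 2 of AtM.

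The groups were wild type Col seeds and seeds of the mutant ref6c, which carries the Col ecotype label too, after 0, 6, 24 and 48 h of imbibition. Each of the 8 groups held 3 libraries. After-ripened seeds, stored at room temperature, were sown on MS medium in long days, and the seeds at 0 h are called dry seeds here. Because the growth protocol of each sample speaks of ref6-1;REF6-HA seeds, the genotype of a group was taken from the sample names. The labels do not say that the 3 libraries of a group came from separate seed lots. The p-values here set a difference against the spread between libraries within groups, estimated over all 8 groups.

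LEA proteins are small, mostly hydrophilic and largely unstructured proteins that build up late in seed development, when the embryo becomes tolerant of drying. They are thought to shield enzymes and membranes while water is lost, and most of their genes respond to abscisic acid through bZIP factors such as ABI5. Dehydrins are LEA proteins with a conserved lysine-rich segment, and some of them also respond to cold and dehydration in vegetative tissue. The REF6 protein takes methyl groups off H3K27me3, a histone mark of silenced genes.

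REF6 transcript was lower in ref6c at each of the 4 times, with all 3 Col libraries above all 3 ref6c libraries. At 6 h, where it was highest, REF6 stood at 35.14, 32.5 and 39.75 TPM in Col and at 14.39, 13.48 and 15.27 TPM in ref6c (log2 difference -1.26 ± 0.12 SE, adjusted p = 6.5e-08). Libraries held 16621290 to 19247836 recovered reads, and libraries of a group correlated at 0.9885 to 0.9975 over genes. The ref6c 24 h replicate 2 library stood apart from the other libraries of its group: LEA members made up 2.9% of its TPM against 2.12% and 2.32%, and 16 storage and oil body genes summed to 38337 TPM against 19988 and 19598 TPM. Without it 33 members were called at 24 h, against 35 with it. In bulk seed libraries, fewer cells of a type and less RNA per cell cannot be told apart.

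LEA transcripts filled 17.4%, 17.1% and 17.3% of all TPM in the 3 Col libraries at 0 h, and 17.4%, 19.4% and 18.3% in ref6c. The deposited TPM was divided by whole gene spans, introns included, which weighs genes with few introns more. The size of these shares depends on that division. In Col this share fell to 3.55% ± 0.22 (SD, n = 3) at 6 h and 1.2% ± 0.191 at 24 h, then stood at 3.66% ± 0.296 at 48 h. In ref6c it was 3.95% ± 0.204 at 6 h, 2.45% ± 0.404 at 24 h and 6.05% ± 0.152 at 48 h. The shares of the genotypes overlapped at 0 h, and at 6, 24 and 48 h every ref6c library lay above every Col library. At 6 h the gap was narrow, with the lowest ref6c library at 3.72% and the highest Col library at 3.69%.

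**Figure D1:**
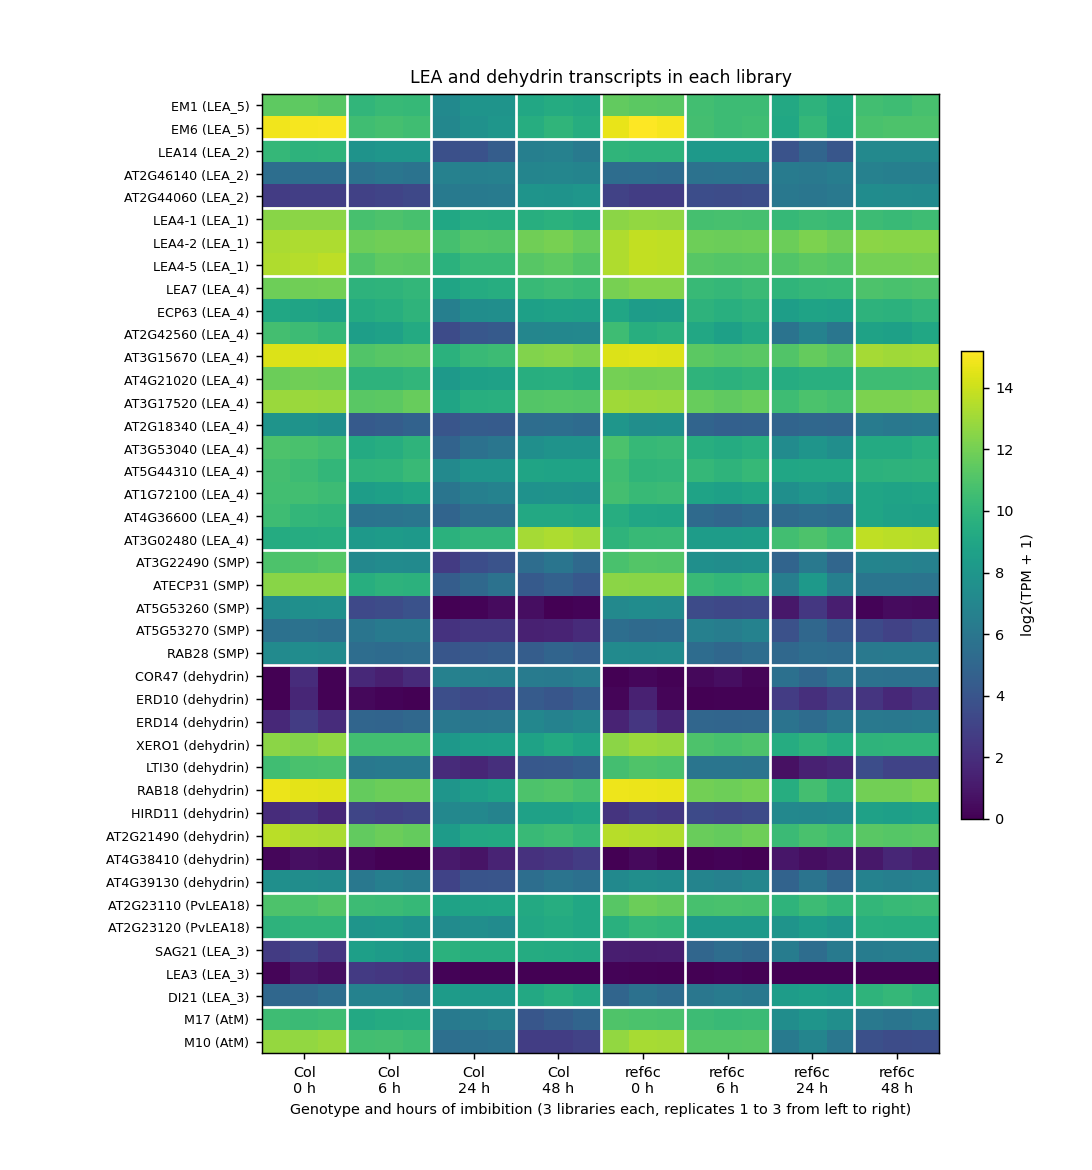
Level of each of the 42 tested members in each of the 24 libraries, as log2(TPM + 1) by colour, with members in rows grouped by subfamily and libraries in columns grouped by genotype and hours of imbibition. Most rows are bright at 0 h, dark at 24 h and brighter again at 48 h, and the SAG21, COR47 and HIRD11 rows brighten from 0 to 24 h instead.

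The steps of imbibition within each genotype asked when these transcripts fell and rose, by limma on log2(TPM + 1) with Benjamini-Hochberg adjustment over all 18481 genes. From 0 to 6 h in Col, 29 members fell and 10 rose, where 9.7% of all genes fell and 75% rose. Among the 10 was LEA3 (AT1G02820), which passed the filter only through Col at 6 h. TPM values are shares of a library, and the median gene rose by 1.23 in that step while the median member changed by -1.49. In ref6c 29 members fell and 8 rose, against 8.47% and 76% of all genes, with medians of -1.66 for members and 1.29 for all genes. Under median-of-ratios scaling, which sets the median gene to 0.00, 36 members fell and 3 rose in Col and 37 fell and 2 rose in ref6c.

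From 6 to 24 h, 31 members fell and 10 rose in Col, against 35.2% and 38% of all genes, and the median member changed by -1.80 where the median gene changed by 0.00. LEA3 is counted among the 31. In ref6c 23 fell and 10 rose, against 32.6% and 35%, with a member median of -0.56. From 24 to 48 h the direction turned. In Col 33 members rose and 4 fell, against 35.5% and 28.3% of all genes, with a median of 1.17 for members and 0.06 for all genes. In ref6c 31 rose and 5 fell, against 30.2% and 24.5%, with medians of 0.92 and 0.06. The rise from 24 to 48 h was called in both genotypes for 30 members and for 22.9% of all genes. A fall in both earlier steps followed by a rise from 24 to 48 h was called in Col for 22 of the 42, against 2.72% of all genes.

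Next, ref6c and Col seeds were set against each other at each time. At 0 h, 4 members were higher and 3 lower in ref6c, against 2.07% and 10.6% of all genes. At 6 h, 4 were higher and 5 lower, against 5.89% and 10.1%, with LEA3 counted among the 5. At 24 h, 29 were higher and 6 lower, against 12% and 22.2%, and the median member differed by 1.06 where the median gene differed by -0.04. At 48 h, 30 were higher and 7 lower, against 22.1% and 34.1%, with medians of 0.80 and -0.05. Excess at both late times was called for 28 members and deficit at both for 5, against 8.81% and 17.2% of all genes. Of the 29 members that were highest at 0 h in Col, 26 were higher and 1, LTI30, was lower in ref6c at 24 h, and the counts were 26 and 1 at 48 h also. Of the 1732 genes that were highest at 0 h in Col, 38.9% were higher and 6.18% lower at 24 h, and 43.2% and 15.5% at 48 h. Of the 10 that were highest at 24 or 48 h in Col, 1 was higher and 5 lower in ref6c at 24 h, and 2 were higher and 6 lower at 48 h. Of the 10639 genes with such a late maximum, 6.23% were higher and 32% lower at 24 h, and 11.3% and 50.7% at 48 h.

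The counts at 0 and 6 h moved with the processing. At 0 h, 4 members were called without Col replicate 2 or without ref6c replicate 2, and 7 were higher and 3 lower under median-of-ratios scaling. At 6 h, voom on recovered reads called 6 higher and 5 lower. The storage and oil body list moved alongside at the late times. At 24 h 8 of its 16 genes were higher and 1 lower in ref6c, against 12% and 22.2% of all genes. At 48 h 15 were higher and 0 lower, against 22.1% and 34.1%. Their part in the LEA result was not tested.

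**Figure D2:**
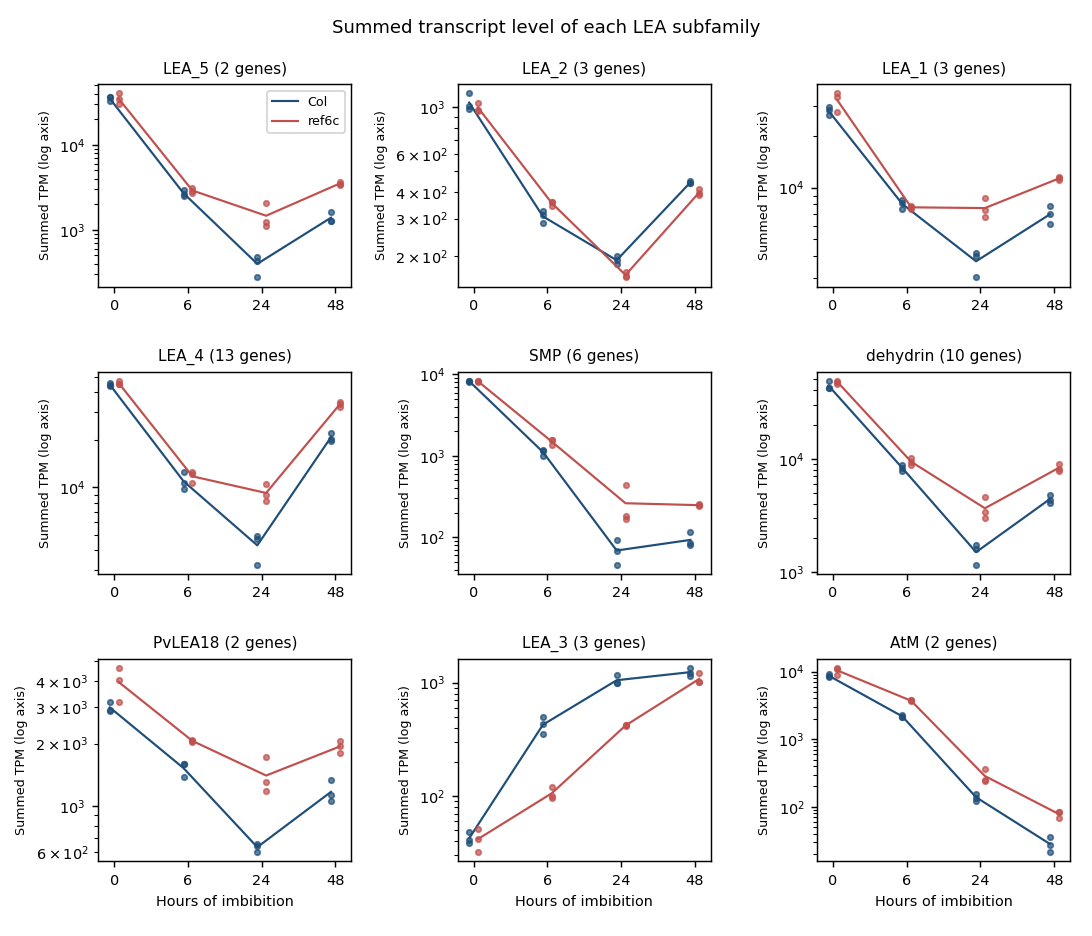
Summed TPM of each LEA subfamily (log axis) against hours of imbibition, with 1 point per library, lines through the mean of 3 libraries, Col in blue and ref6c in red. At 24 h the ref6c libraries of 7 subfamilies lie above all Col libraries, while those of LEA_2 and LEA_3 lie below them, and AtM goes on falling to 48 h.

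The sequences just upstream of 6 members are printed because these members carry the patterns that follow. EM6, AT2G42560 and AT3G02480 were higher in ref6c at 24 and 48 h, SAG21 and LTI30 were lower, and XERO1 is the neighbour of LTI30 with the opposite difference. Each is the 150 bases before the annotated gene start, read 5′ to 3′ on the strand of the gene from the TAIR10.1 genome. Capitals mark ACGTG, the core of the abscisic acid response element, or its reverse complement CACGT, and ACCGAC or GCCGAC, the cold and drought element DRE, or their reverse complements. The windows lie at chr2:16780369-16780518 (minus strand) for EM6, chr2:17716913-17717062 (minus) for AT2G42560, chr3:512070-512219 (plus) for AT3G02480, chr4:1047106-1047255 (minus) for SAG21, chr3:18940493-18940642 (plus) for LTI30 and chr3:18941775-18941924 (plus) for XERO1.
EM6: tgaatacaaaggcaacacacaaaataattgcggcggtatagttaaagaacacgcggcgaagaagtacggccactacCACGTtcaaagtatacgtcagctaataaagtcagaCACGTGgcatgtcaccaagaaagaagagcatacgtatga
AT2G42560: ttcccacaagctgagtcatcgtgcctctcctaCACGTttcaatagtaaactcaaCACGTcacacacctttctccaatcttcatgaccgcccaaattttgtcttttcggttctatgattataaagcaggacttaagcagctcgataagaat
AT3G02480: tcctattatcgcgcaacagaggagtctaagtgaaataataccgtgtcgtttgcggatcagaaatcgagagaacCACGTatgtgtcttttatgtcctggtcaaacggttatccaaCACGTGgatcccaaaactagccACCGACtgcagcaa
SAG21: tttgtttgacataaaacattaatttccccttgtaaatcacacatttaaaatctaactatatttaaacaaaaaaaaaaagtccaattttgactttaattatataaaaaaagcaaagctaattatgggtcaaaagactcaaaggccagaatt
LTI30: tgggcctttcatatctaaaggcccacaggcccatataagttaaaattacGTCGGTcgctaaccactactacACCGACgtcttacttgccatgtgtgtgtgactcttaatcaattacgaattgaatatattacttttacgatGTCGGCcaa
XERO1: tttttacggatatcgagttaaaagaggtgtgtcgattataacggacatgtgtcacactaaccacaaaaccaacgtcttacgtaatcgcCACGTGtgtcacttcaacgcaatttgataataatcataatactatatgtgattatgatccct

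Letters were then searched on both strands in the 250 bases before the start of each tested nuclear gene that matched the annotation and had no unread base there. ACGTG was found before 33 of the 42 members (78.6%) and before 23.9% of 18316 genes, and at least 2 matches before 27 members (64.3%) and 10.3% of genes. CACGTG reads the same on both strands and counts as 2 matches. All 12 tested LEA_4 members, both LEA_5 and all 3 LEA_1 members had at least 2 matches. Among the 28 members higher in ref6c at both late times 25 (89.3%) held ACGTG, and among the other 14 tested members 8 (57.1%) held it, among them 1 of the 5 lower at both times, AT2G46140. The DRE letters stood before 33.3% of members and 8.11% of genes, and 3 times before LTI30. They stood before 39.3% of the members higher at both late times and 40% of those lower at both. CATGCA, the RY element of embryo maturation genes, stood before 19% of members and 7.75% of genes. The letters bound by REF6 itself, in the 4 spellings CTCTGTTT, CTCTGTTC, CTCTGCTT and CTCTGCTC, stood before 4.76% of members and 5.27% of genes. These are matches of letters and not mapped binding sites.

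The LEA_5 members EM1 and EM6 encode the Em proteins, which are among the most hydrophilic proteins of the dry embryo. EM6 (AT2G40170, chr2:16779552-16780368, minus strand) held 30095, 33125 and 33547 TPM in Col at 0 h, 1482, 1685 and 1506 TPM at 6 h, 129.5, 207.3 and 251.7 TPM at 24 h and 721, 978.2 and 699.5 TPM at 48 h. In ref6c the libraries read 26842, 37488 and 31850 TPM at 0 h, 1578, 1378 and 1482 TPM at 6 h, 536.9, 1124 and 594.3 TPM at 24 h and 1855, 2015 and 1955 TPM at 48 h. The genotypes overlapped at 0 and 6 h and did not overlap at 24 or 48 h. Its 24 h level was 0.608% of the 0 h level in Col and 2.35% in ref6c. EM6 was 3.83 times as high in ref6c at 24 h (log2 difference 1.90 ± 0.22, adjusted p = 4.2e-07) and 2.43 times at 48 h (1.3 ± 0.22, 2.5e-05). EM1 fell less, to 147.2, 228.2 and 232.3 TPM in Col at 24 h from 2802, 2793 and 2422 TPM at 0 h. In ref6c EM1 stood at 584.8, 916.7 and 637.3 TPM at 24 h, with no overlap with Col (1.81 ± 0.15, 4.2e-09). Both genes rose from 24 to 48 h in both genotypes, EM6 by 2.06 ± 0.22 in Col and 1.45 ± 0.22 in ref6c, and the difference between those steps was -0.61 (adjusted p = 0.18).

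The LEA_1 members LEA4-1, LEA4-2 and LEA4-5 form the group 4 LEA proteins, which protect enzymes against partial drying in vitro. All 3 were higher in ref6c at 24 and 48 h and none was called at 0 or 6 h. LEA4-5 held 829.4, 1217 and 1214 TPM in Col at 24 h and 2119, 2669 and 2305 TPM in ref6c (1.14 ± 0.14, adjusted p = 1.2e-06). In ref6c its level at 24 h was 18.2% of that at 0 h, the same share as at 6 h, while in Col it went from 21.2% at 6 h to 9.17% at 24 h. LEA4-2 held 1645, 2212 and 2107 TPM in Col at 24 h and 3531, 4622 and 3788 TPM in ref6c (1.00 ± 0.13, 1.7e-06). The fall of both from 6 to 24 h differed between genotypes (interaction 1.22 and 1.05, adjusted p = 0.00013 and 0.00024), since in ref6c their step was -0.01 and 0.13. LEA4-1 was not called from 24 to 48 h, with 0.22 ± 0.11 in Col (0.076) and 0.10 ± 0.11 in ref6c (0.45), and the other two rose in both genotypes.

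The 12 tested LEA_4 members, the largest subfamily, have repeated segments that can fold into helices on drying. Of these, 11 were higher in ref6c at 24 h and 11 at 48 h, none was lower, and all 12 rose from 24 to 48 h in both genotypes. The member not called in either comparison was AT4G36600, whose ref6c libraries all lay below the Col libraries at 48 h (-0.36). AT2G42560 differed most: its libraries held 10.03, 16.59 and 18.5 TPM in Col at 24 h and 55.27, 107.8 and 62.71 TPM in ref6c (2.23 ± 0.26, adjusted p = 4.9e-07). At 48 h it held 124.9, 130.7 and 135.6 TPM in Col and 424.9, 393.1 and 530.3 TPM in ref6c (1.77 ± 0.26, 3.8e-06). At 0 h its levels overlapped, with 1599, 1369 and 1100 TPM in Col and 1451, 741.1 and 859.1 TPM in ref6c. AT3G53040 came next, at 27.89, 49.07 and 62.67 TPM in Col at 24 h against 158, 242.1 and 184.3 TPM in ref6c (2.09 ± 0.22, 1.4e-07). AT3G17520, high in dry seed at 7666, 7743 and 7426 TPM in Col and 8258, 7548 and 7454 TPM in ref6c, held 458.5, 726.1 and 768.9 TPM in Col at 24 h and 1450, 1874 and 1680 TPM in ref6c, without overlap (1.38 ± 0.14, 7.5e-08). The most abundant LEA_4 transcript of the dry seed, AT3G15670, held 21311, 20628 and 21406 TPM in Col at 0 h, 826.5, 1239 and 1370 TPM at 24 h and 5130, 5647 and 4775 TPM at 48 h. In ref6c AT3G15670 stood at 2170, 3097 and 2432 TPM at 24 h and 9049, 8187 and 8562 TPM at 48 h, above every Col library at both times.

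Rises from 24 to 48 h within LEA_4 ran from 1.02 to 3.77 in Col and from 0.75 to 3.38 in ref6c. AT4G36600 had the largest one in each genotype. Its libraries went from 29.12, 45.62 and 45.78 TPM at 24 h to 570.1, 568.9 and 514.4 TPM at 48 h in Col, 13.7 times as high (3.77 ± 0.16, adjusted p = 1.2e-15). In ref6c it went from 37.35, 44.74 and 39.46 TPM to 494.7, 407.1 and 392.2 TPM, 10.6 times as high (3.38 ± 0.16, 8.1e-14). AT4G36600 was lower in ref6c in the dry seed, with 1403, 1083 and 982.2 TPM in Col and 712.3, 505.4 and 496.2 TPM in ref6c at 0 h (-1.02 ± 0.16, 7.3e-05), a call that ended when only those groups were fitted. It was also called lower at 6 h, with 53.33, 57.15 and 60.48 TPM in Col and 36.92, 31.72 and 38.22 TPM in ref6c (-0.67).

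AT3G02480 was the only tested LEA_4 member whose level at 48 h exceeded that of the dry seed in both genotypes. It held 651.7, 673.7 and 695.9 TPM in Col at 0 h, 292.5, 317 and 285.5 TPM at 6 h, 831.6, 1035 and 1027 TPM at 24 h and 9049, 10064 and 8809 TPM at 48 h, or 1381% of its 0 h level. In ref6c it held 944.9, 1203 and 1233 TPM, 342.5, 340.1 and 352.8 TPM, 1554, 2005 and 1395 TPM, and 13815, 12682 and 12221 TPM at the same times. Every ref6c library lay above every Col library at each of the 4 times. The difference was called at 0 h (0.73 ± 0.12, adjusted p = 0.00012), 24 h (0.77 ± 0.12, 2.2e-05) and 48 h (0.47 ± 0.12, 0.0016), and was 0.21 ± 0.12 at 6 h (0.26). The whole LEA_4 subfamily summed to 20384, 22231 and 19760 TPM in Col at 48 h.

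**Figure D3:**
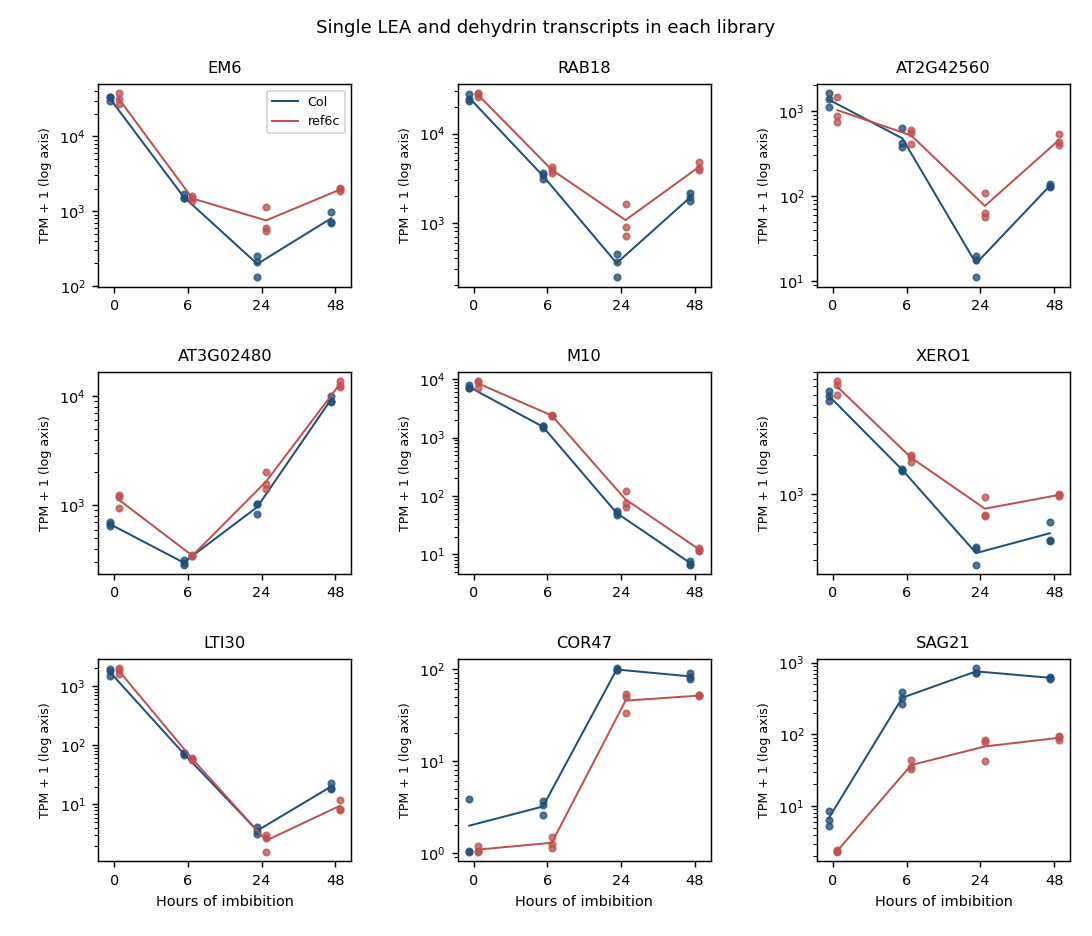
Level of 9 single members as TPM + 1 (log axis) against hours of imbibition, with 1 point per library and lines through the means of 3 libraries, Col in blue and ref6c in red. EM6, RAB18, AT2G42560 and XERO1 separate by genotype at 24 and 48 h with ref6c above, LTI30, COR47 and SAG21 with ref6c below, and M10 falls at every step.

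The SMP members, the seed maturation proteins, divided in the late step. All 5 tested were higher in ref6c at 24 h and 4 at 48 h. ATECP31, an embryo protein and the most abundant of them in dry seed, held 5810, 5827 and 5662 TPM in Col at 0 h and 21.64, 34.67 and 52.65 TPM at 24 h. In ref6c it held 5899, 5820 and 5776 TPM at 0 h and 91, 286.4 and 91.6 TPM at 24 h (1.94 ± 0.29, adjusted p = 1.9e-05). Unlike most of the family it was lower at 48 h than at 24 h, at 18.95, 25.41 and 17.19 TPM in Col (-0.73 ± 0.29, 0.036) and 59.11, 58.06 and 56.21 TPM in ref6c (-1.20 ± 0.29, 0.0015). The ref6c fall was -0.65 without ref6c 24 h replicate 2, and its call ended when only those groups were fitted. The Col fall overlapped between times and its call ended without Col 24 h replicate 2 (-0.71) or 3 (-0.42), without Col 48 h replicate 1 (-0.68) or 3 (-0.61), and in 5 other settings. AT5G53270 likewise fell from 24 to 48 h, from 3.632, 4.565 and 4.602 TPM to 1.683, 1.874 and 2.712 TPM in Col (-0.78 ± 0.21, 0.0023) and from 12.87, 33.06 and 17.35 TPM to 9.603, 6.828 and 9.611 TPM in ref6c (-1.10 ± 0.21, 0.00011). The Col call for AT5G53270 ended under voom (-1.03).

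AT3G22490 and RAB28, a seed transcript that responds to abscisic acid, rose from 24 to 48 h instead. AT3G22490 held 5.189, 11.11 and 13.88 TPM in Col at 24 h and 42.01, 58.99 and 35.93 TPM at 48 h, against 28.37, 69.13 and 32 TPM and then 117.1, 108.9 and 99.91 TPM in ref6c (24 h difference 1.98 ± 0.26, adjusted p = 3.2e-06). It shares 25 bases with the gene PDF2 on the other strand, whose reads could not be told apart, since the strand setting of the read counting is not given in the sources used here. RAB28 was the member of this group whose excess in ref6c was larger at 48 h than at 24 h. RAB28 held 15.59, 18.05 and 20.51 TPM in Col at 24 h against 34.14, 43.9 and 40.36 TPM in ref6c (1.09 ± 0.11, adjusted p = 4.8e-08). At 48 h it held 20.98, 28.48 and 23.34 TPM against 70.4, 74.78 and 72.96 TPM (1.56 ± 0.11, 1.8e-11). AT5G53260 was near 0 in Col at 24 h, with 0, 0.1129 and 0.3414 TPM, where ref6c held 0.9869, 4.468 and 1.447 TPM.

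The AtM genes M10 and M17, transcripts of late embryo development, fell at every step in both genotypes and showed no late rise. M10 went from 7152, 6932 and 7846 TPM in Col at 0 h to 1544, 1595 and 1448 TPM at 6 h, 46.33, 50.17 and 54.07 TPM at 24 h and 5.706, 5.762 and 6.865 TPM at 48 h, 0.0836% of the start. In ref6c it went from 6919, 9366 and 9031 TPM to 2378, 2356 and 2404 TPM, 74.72, 119.8 and 65 TPM, and 12.01, 10.44 and 11.11 TPM. The genotypes overlapped at 0 h and were apart at 6, 24 and 48 h, with ref6c above. M10 was higher in ref6c by 0.64 ± 0.15 at 6 h (adjusted p = 0.0033), 0.73 ± 0.15 at 24 h (0.00046) and 0.78 ± 0.15 at 48 h (9.1e-05). Without ref6c 24 h replicate 2 the 24 h difference was 0.47. The 24 h call ended when only those groups were fitted, and the 48 h call ended under voom (0.88). M17 had the larger excess, at 582.8, 656 and 685.9 TPM in Col against 1354, 1268 and 1325 TPM in ref6c at 6 h (1.04 ± 0.15, 1.6e-05). Its libraries did not overlap at 0 h either, with 1401, 1315 and 1441 TPM in Col and 2052, 1903 and 1820 TPM in ref6c (0.47). That 0 h call ended with any single 0 h library left out. At 48 h M17 held 15.8, 21.7 and 28.95 TPM in Col and 70.45, 58.9 and 72.4 TPM in ref6c (1.59 ± 0.15, 3.0e-09). M10 and M17 were among the 4 members called higher in ref6c at 6 h, with AT2G44060 and AT2G23110, whose 6 h call ended without Col replicate 3 (0.41), ref6c replicate 2 (0.46) or ref6c replicate 3 (0.47).

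The PvLEA18 members AT2G23110 and AT2G23120, neighbours 475 bases apart on chromosome 2, were higher in ref6c at 24 and 48 h. AT2G23110 held 437.1, 473.2 and 481.5 TPM in Col at 24 h and 946.5, 1383 and 1055 TPM in ref6c (1.26 ± 0.14, adjusted p = 1.7e-07). Its libraries did not overlap between genotypes at 0 or 6 h either, with 1974, 1937 and 2218 TPM against 2397, 3515 and 3054 TPM at 0 h (0.53 ± 0.14, 0.011). The 0 h call ended without Col 0 h replicate 2 (0.50) or ref6c 0 h replicate 2 (0.41), and when only those groups were fitted. AT2G23120 held 162.6, 180.7 and 161.8 TPM against 228.9, 342.9 and 253.2 TPM at 24 h (0.68 ± 0.13, 0.00017) and rose to 541.7, 619.3 and 518.9 TPM against 755.3, 745.5 and 736.7 TPM at 48 h, where its call ended under median-of-ratios scaling (0.39). AT2G23120 shares 144 bases with AT2G23118 on the other strand.

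The LEA_2 members differ from the rest of the family in folding into a globular shape. LEA14, a stress-responsive member, behaved like the dry seed transcripts: 1106, 922 and 959.6 TPM in Col at 0 h fell to 12.17, 13.41 and 21.37 TPM at 24 h and stood at 95.08, 103.4 and 73.36 TPM at 48 h. In ref6c LEA14 held 13.96, 30.05 and 15.44 TPM at 24 h, overlapping with Col (0.28 ± 0.20, adjusted p = 0.29), and 142.7, 138.4 and 140.8 TPM at 48 h (0.64 ± 0.20, 0.0075). The 48 h call ended without Col 48 h replicate 3 (0.50). AT2G46140 and AT2G44060 increased through imbibition instead, and both were lower in ref6c at the late times. AT2G44060 held 5.371, 6.145 and 6.073 TPM in Col at 0 h and 227.7, 225.1 and 250.5 TPM at 48 h, against 6.862, 5.85 and 5.781 TPM and 166.3, 163.1 and 155.6 TPM in ref6c (48 h difference -0.53 ± 0.08, 7.6e-06). Its call at 24 h (-0.23 ± 0.08, 0.035) ended with any of 5 libraries left out, Col 24 h replicate 1 (-0.23), 2 (-0.25) or 3 (-0.21) and ref6c 24 h replicate 1 (-0.24) or 2 (-0.18). AT2G46140 held 102.8, 95.32 and 99.6 TPM in Col at 24 h and 78.78, 70.87 and 84.84 TPM in ref6c (-0.34 ± 0.07, 0.0006). The rise of AT2G46140 and AT2G44060 from 0 to 6 h in Col, by 0.33 and 0.35, was smaller than the shift of the median gene and turned under median-of-ratios scaling (-1.52 and -1.33).

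**Figure D4:**
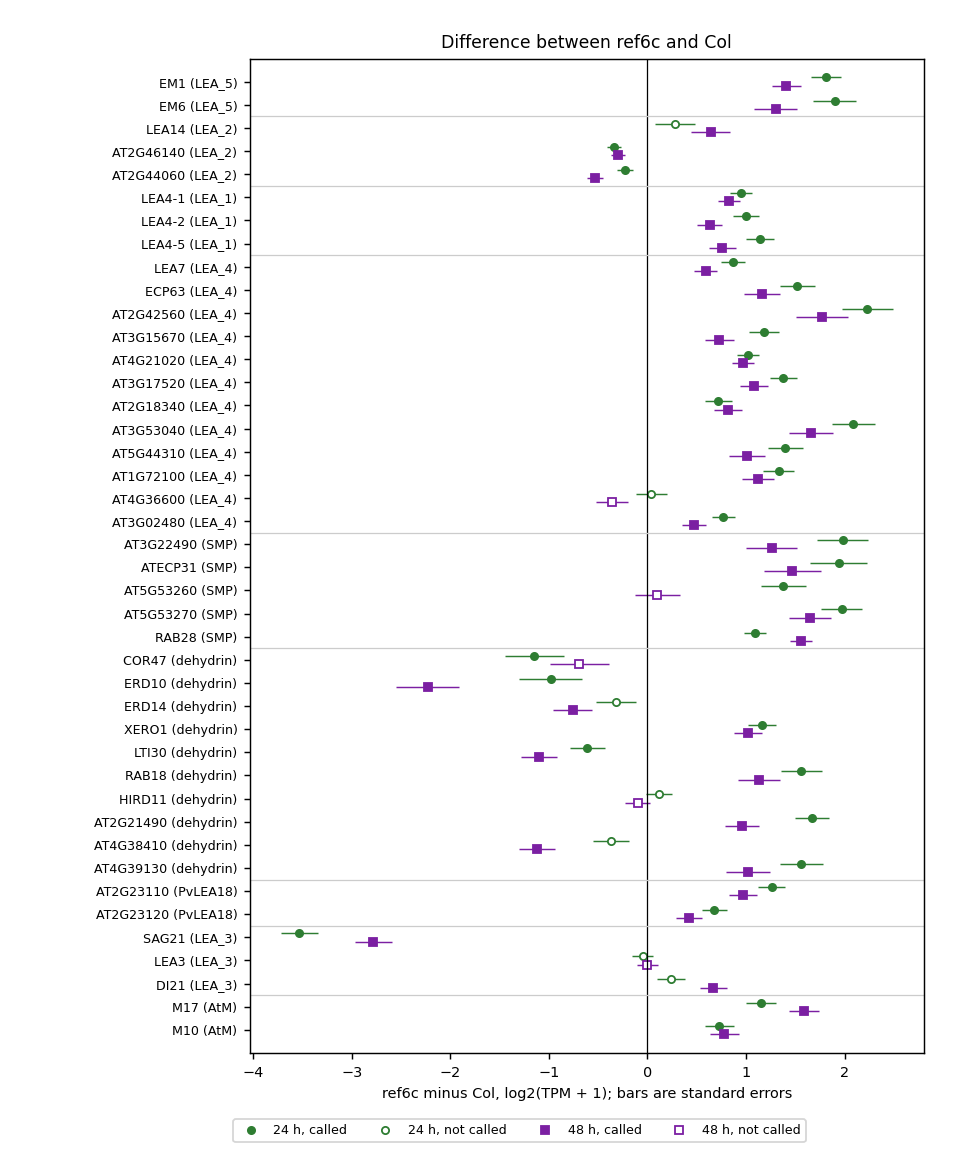
Difference between ref6c and Col at 24 h (circles) and 48 h (squares) for each tested member as log2(TPM + 1), with bars for the standard error and filled symbols for an adjusted p under 0.05. The symbols of 28 members lie to the right at both times and are filled, and those of SAG21 lie furthest to the left, at -3.53 and -2.78.

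The dehydrins held members of both kinds, and their median difference of -0.10 at 24 h and -0.40 at 48 h hid this. RAB18, XERO1, AT2G21490 and AT4G39130 were higher in ref6c at 24 and 48 h. RAB18, a glycine-rich dehydrin that responds to abscisic acid, was the most abundant: 28008, 24416 and 23446 TPM in Col at 0 h fell to 243, 360.2 and 450 TPM at 24 h and stood at 1946, 2134 and 1735 TPM at 48 h. In ref6c RAB18 held 28247, 27482 and 25941 TPM at 0 h, 713.7, 1607 and 890.2 TPM at 24 h (1.56 ± 0.21, adjusted p = 3.8e-06) and 4064, 3923 and 4784 TPM at 48 h (1.13 ± 0.21, 7.9e-05). The genotypes overlapped at 0 h and did not overlap at the late times. AT2G21490 held 326.3, 575 and 611 TPM in Col at 24 h and 1320, 1850 and 1511 TPM in ref6c (1.67 ± 0.17, 6.2e-08).

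COR47, ERD10 and ERD14, the acidic dehydrins of cold and dehydration responses, had little transcript in dry seed and increased later. COR47 held 100.9, 95.37 and 95.17 TPM in Col at 24 h and 48.13, 32.53 and 51.61 TPM in ref6c, with no overlap (-1.15 ± 0.30, adjusted p = 0.0046). At 48 h it held 79.89, 76.56 and 88.43 TPM against 51.05, 49.1 and 50.37 TPM, again without overlap but not called (-0.69 ± 0.30, 0.056). The 24 h call for COR47 ended with a pseudocount of 0.1 (-1.17) and under median-of-ratios scaling (-1.11). ERD10 held 19.75, 15.81 and 22.75 TPM in Col at 48 h and 4.125, 2.361 and 3.686 TPM in ref6c (-2.23 ± 0.32, 3.6e-06). The 24 h deficit of ERD10 (-0.98 ± 0.32, 0.022) was not called without Col 24 h replicate 1 (-0.88) or ref6c 24 h replicate 2 (-0.77), nor in 3 other settings. ERD14 held 128, 106.3 and 128.9 TPM against 68.34, 67.85 and 75.83 TPM at 48 h (-0.76 ± 0.20, 0.0026).

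At 0 h these 3 genes were highest in replicate 2 of both genotypes, with COR47 at 2.87 TPM against 0.03254 and 0.06177 TPM in Col, and ERD10 at 1.619 TPM against 0.1443 and 0.1446 TPM in ref6c. AT4G38410, another acidic dehydrin, held 3.492, 4.158 and 5.542 TPM in Col and 0.9368, 2.111 and 1.442 TPM in ref6c at 48 h (-1.12 ± 0.18, adjusted p = 1.0e-05). HIRD11, a small metal-binding dehydrin, rose from 2.794, 3.75 and 2.265 TPM at 0 h to 406.2, 412.1 and 502.9 TPM at 48 h in Col and overlapped with ref6c at 24 and 48 h (0.12 ± 0.13, 0.53, and -0.10 ± 0.13, 0.53).

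LTI30 and XERO1 lie 313 bases apart on the plus strand of chromosome 3 and differed between genotypes in opposite directions. Their upstream sequences above differ in their letters, with 3 DRE matches and no ACGTG before LTI30, and ACGTG in both directions and no DRE before XERO1. LTI30, a lysine-rich dehydrin that binds membranes, held 1504, 1799 and 1920 TPM in Col at 0 h and 1613, 2027 and 1883 TPM in ref6c. At 24 h LTI30 was at 2.604, 2.124 and 3.093 TPM in Col and 0.5732, 1.668 and 2.095 TPM in ref6c (-0.61 ± 0.18, adjusted p = 0.011). At 48 h it was at 17.48, 17.64 and 21.92 TPM and 11, 7.236 and 7.176 TPM (-1.10 ± 0.18, 1.8e-05). The ref6c libraries lay below the Col libraries at both late times, though the 24 h call ended without Col 24 h replicate 3 (-0.51) or ref6c 24 h replicate 1 (-0.32), when only those groups were fitted, and under voom (-0.96). XERO1 held 276.2, 364.2 and 381.6 TPM in Col at 24 h and 679.2, 934.1 and 672.8 TPM in ref6c (1.16 ± 0.14, 1.1e-06). At 48 h XERO1 stood at 435.6, 603.6 and 425.2 TPM and 953.9, 998.2 and 977.9 TPM (1.02 ± 0.14, 1.9e-06).

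The 3 LEA_3 members differed from each other: at 24 h 1 was lower in ref6c and none higher, and at 48 h 1 was higher and 1 lower. SAG21, a mitochondrial LEA protein of senescence and oxidative stress, rose in Col from 5.353, 7.472 and 4.293 TPM at 0 h to 385.9, 317.6 and 265 TPM at 6 h, 838.8, 712.3 and 707.6 TPM at 24 h and 638.2, 618.1 and 582.4 TPM at 48 h. In ref6c SAG21 rose only to 31.42, 42.98 and 34.44 TPM at 6 h, 82.06, 41.43 and 76.74 TPM at 24 h and 81.4, 89.56 and 94.03 TPM at 48 h, from 1.464, 1.297 and 1.389 TPM at 0 h. Every ref6c library lay below every Col library at each of the 4 times. In the dry seed the difference was -1.47 ± 0.19 (adjusted p = 7.0e-06). It widened to -3.11 ± 0.19 after 6 h (2.0e-11) and -3.53 ± 0.19 after 24 h (2.0e-12), and after 48 h it was -2.78 ± 0.19 (1.4e-11). The pseudocount of 1 understates the 0 h difference, where levels were low. The widening from 0 to 6 h lost its call under voom (-1.18). By mean TPM, SAG21 in ref6c was at 0.242 times the Col level at 0 h, 0.112 times at 6 h and 0.0886 times at 24 h. Its log2 difference was the largest deficit among the tested members at each of the 4 times. The annotation places the microRNA gene MIR2936 on 180 bases of SAG21.

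LEA3 (AT1G02820) was seen chiefly in Col at 6 h, at 5.034, 4.599 and 3.919 TPM, where ref6c held 0, 0.1188 and 0 TPM (log2 difference -2.40). It reached 1 TPM in those Col libraries only, so it passed the filter solely through the group where it was high. Its 6 h difference, its Col steps before and after 6 h and its interactions rest on that group. They are not independent of the filter, and the counts of members called in those comparisons include LEA3. DI21, a drought-induced gene, rose at every step in Col to 580, 729 and 569 TPM at 48 h, although its first step, by 1.42, turned under median-of-ratios scaling (-0.43). In ref6c DI21 reached 932.1, 1132 and 911.9 TPM at 48 h (0.67 ± 0.14, 0.00045), so that it was higher in ref6c where SAG21 was lower. At 6 h DI21 was lower in ref6c, at 65.07, 77.44 and 66.56 TPM against 104.4, 106.3 and 84.96 TPM (-0.49 ± 0.14, 0.021), a call that ended without Col 6 h replicate 1 (-0.45) or 2 (-0.43), without ref6c 6 h replicate 1 (-0.44) or 3 (-0.46), and under median-of-ratios scaling (-0.46).

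Whether a step differed between the genotypes was tested as an interaction. From 0 to 6 h, 1 member had a higher step in ref6c and 2 a lower one, against 5.15% and 2.89% of all genes. From 6 to 24 h the step was higher in ref6c for 28 members and lower for 1, against 5.95% and 9.83%, and the median over members was 1.03 where that over all genes was 0.00. By subfamily these 28 were 11 of LEA_4, 5 of SMP, 4 dehydrins, 3 of LEA_1, 2 of LEA_5, 2 of LEA_3 and 1 of PvLEA18. The LEA_3 members among them include LEA3, which passed the filter only through Col at 6 h. AtM had none, with 0.12 ± 0.21 for M17 and 0.09 ± 0.21 for M10. From 24 to 48 h, 2 members had a higher step in ref6c and 3 a lower one, against 5.78% and 16.2%, and the median over members was -0.31, or -0.19 without Col 24 h replicate 1 or ref6c 24 h replicate 2. Median-of-ratios scaling gave 0 higher and 2 lower from 0 to 6 h and 0 and 3 from 24 to 48 h. Voom gave 2 higher and 1 lower from 0 to 6 h and 1 and 2 from 24 to 48 h, and rescaling gave 2 and 1 in that last step. The count from 6 to 24 h ran from 24 to 30 over single libraries left out, and those of the other steps from 1 to 6 and from 1 to 7.

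**Figure D5:**
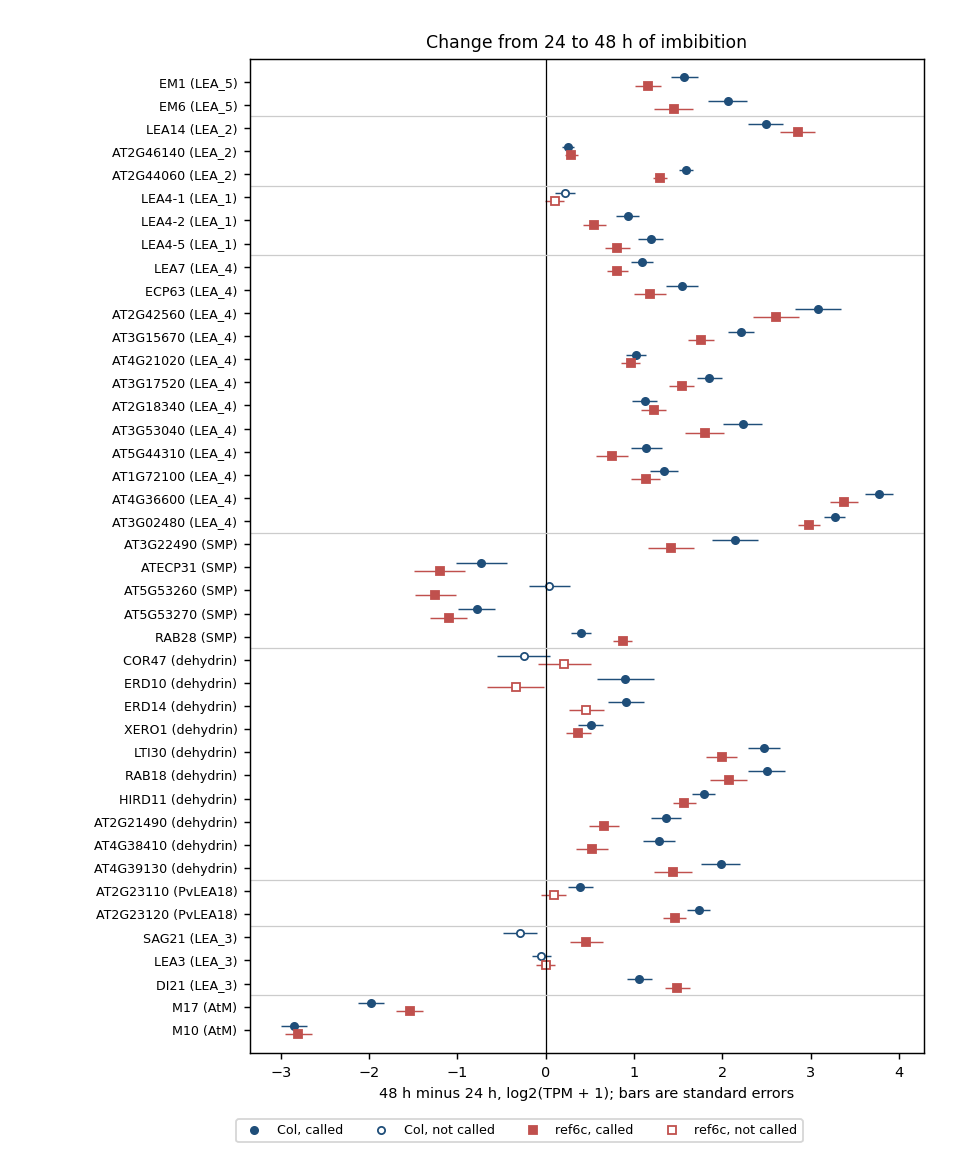
Change from 24 to 48 h in Col (circles) and ref6c (squares) for each tested member as log2(TPM + 1), with bars for the standard error and filled symbols for an adjusted p under 0.05. All 12 LEA_4 members lie to the right in both genotypes, M10 and M17 to the left, and the SMP members on both sides.

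Marker transcripts moved in the same late step. From 24 to 48 h in Col, 3 of the 16 storage and oil body genes rose and 11 fell, against 35.5% and 28.3% of all genes. Their sum went from 9597, 10776 and 13273 TPM to 5886, 6456 and 5106 TPM while the LEA sum rose from 9826, 12941 and 13288 TPM to 35878, 39811 and 34023 TPM. In ref6c 4 of the 16 rose and 6 fell, against 30.2% and 24.5% of all genes, with sums of 19988, 38337 and 19598 TPM and then 24524, 24644 and 25467 TPM. The 3 endosperm markers EPR1, EXPA2 and MAN7 summed to 3837 to 4064 TPM in Col and 3850 to 3946 TPM in ref6c at 24 h. Of the 3, 1 was called higher in ref6c at 24 h and 0 lower, against 12% and 22.2% of all genes. Every ref6c library lay above every Col library for MAN7 and EPR1, and below for EXPA2. Among all 18481 genes, 3396 lay above and 5480 below in this way. At 48 h the 3 markers summed to 2343 to 2846 TPM in Col and 4231 to 4826 TPM in ref6c, where all 3 were higher, against 22.1% of all genes. The 8 photosynthesis markers of the seedling rose from 2536 to 2675 TPM at 24 h to 10443 to 12723 TPM at 48 h in Col, and from 1981 to 2351 TPM to 4692 to 5300 TPM in ref6c. All 8 were lower in ref6c at 48 h and 6 at 24 h, against 34.1% and 22.2% of all genes. The pollen markers VGD1 and VGDH1 summed to at most 0.198 TPM after 0 h. The part of tissue makeup and of progress through germination in the LEA differences was not tested.

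Regulators of LEA genes, 28 listed and 23 tested, were called in both directions. At 24 h 4 were higher and 4 lower in ref6c, and at 48 h 11 were higher and 5 lower. Of all genes tested, 12% were higher and 22.2% lower at 24 h, and 22.1% and 34.1% at 48 h. EEL, a bZIP factor that binds the promoter of EM1, held 10.16, 12.85 and 17.73 TPM in Col at 24 h and 32.98, 49.79 and 31.26 TPM in ref6c (1.42 ± 0.15, adjusted p = 1.6e-07). At 48 h EEL held 32.68, 35.03 and 29.88 TPM in Col and 80.78, 83.18 and 86.31 TPM in ref6c (1.33 ± 0.15, 1.0e-07). GBF3, a G-box binding bZIP factor, was higher at 24 h by 0.56 ± 0.10 (0.00015), and AFP2, which binds ABI5 family proteins, was higher at 48 h by 0.92 ± 0.08 (2.5e-09). ABF3, a bZIP factor of vegetative abscisic acid responses, was lower in ref6c, at 3.42, 3.68 and 3.983 TPM in Col against 1.769, 1.059 and 1.566 TPM at 24 h (-0.94 ± 0.10, 1.4e-07), and 23.54, 21.71 and 26.19 TPM against 9.447, 8.411 and 10.18 TPM at 48 h (-1.26 ± 0.10, 2.0e-10). EEL and GBF3 were also called in the interaction from 6 to 24 h, higher in ref6c, and ABF3 lower.

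The other adjacent members had no opposite calls between genotypes at 24 or 48 h. COR47 and ERD10, 1029 bases apart, were lower in ref6c at 24 h. AT3G22490 and ATECP31, 781 bases apart with 1 gene between, were higher at 24 and 48 h, as were M17 and M10, 1998 bases apart with 1 gene between. AT5G53260 and AT5G53270, 596 bases apart, were higher at 24 h, and at 48 h AT5G53260 differed by 0.10 ± 0.23 (adjusted p = 0.74). Of the 6 adjacent pairs LTI30 and XERO1 were the one with opposite calls.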

How the data were processed

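RNA sequencing of seeds gave 24 libraries, and the authors deposited 1 table of TPM per gene and library, each column summing to 1000000. The build TAIR10 and, without a role or order, HISAT2 2.1.10, DESeq2 1.26.0 and fastp 0.20.1 are named, per the submitters' processing notes, and the read counter and its strand setting are not given in the sources used here. TPM multiplied by the gene span of the TAIR10.1 annotation, introns included, gave whole reads within 0.001 for 99.97% of 462321 values above 0, so the deposited TPM was divided by whole gene spans. Of 23826 IDs 23630 matched that annotation, and symbols come from it.

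Genes with at least 1 TPM in at least 3 libraries were tested as log2(TPM + 1), a pseudocount of 1 that understates changes of low genes. A single fit of 8 group means with 16 residual degrees of freedom was made with limma 3.58.1 in R 4.3.3, with an intensity trend, for 13 comparisons. Tests were two-sided, and calls had a Benjamini-Hochberg adjusted p under 0.05 over all genes tested. Differences are given ± SE. Times were tested in 1 model, so neighbouring steps share libraries. The members, lists and tests were chosen with earlier results of these data known. Members named with values in every library were the 2 highest in Col at 0 h of each subfamily, SAG21 and the 3 called members with the largest difference in each direction of a comparison, with others added after their values were seen. The regulators named are the 3 called genes with the smallest adjusted p at 24 h and at 48 h. The steps were tested on simulated data. Alternatives were a pseudocount of 0.1, no filter, median-of-ratios scaling, rescaling without organelle, storage and LEA genes, fitting only the groups compared, a replicate block, voom on the recovered reads and leaving out each library. Tables and plots were made in Python 3.11.15 (matplotlib 3.10.9, pandas 2.3.3, numpy 2.4.6).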

Additional observations from a re-analysis of the deposited data

Results flagged for a closer look

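These members had a step of imbibition that differed between the genotypes by the interaction test, given as the ref6c step minus the Col step on log2(TPM + 1). From 0 to 6 h, SAG21 rose less in ref6c (-1.65), LEA3 changed less (-1.93) and AT2G44060 rose more (0.39). From 6 to 24 h, LEA3, seen chiefly in Col at 6 h, differed by 2.35, AT3G53040 by 2.15 and AT2G42560 by 2.1, both falling less in ref6c, and AT2G44060 by -0.68. From 24 to 48 h, SAG21 differed by 0.75 and RAB28 by 0.47, while AT5G53260 differed by -1.29, AT4G38410 by -0.75 and AT2G21490 by -0.71.

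The differences for AT2G44060 from 0 to 6 h and for the 5 members from 24 to 48 h each lost their call in at least 1 setting. SAG21 from 24 to 48 h lost its call in 21 settings, among them without ref6c 24 h replicate 2, where the value was 0.44. RAB28 lost its call without Col 48 h replicate 1 (0.37), AT4G38410 without ref6c 48 h replicate 1 (-0.58), AT2G21490 without Col 24 h replicate 1 (-0.42), AT2G44060 without Col 6 h replicate 1 (0.31), and AT5G53260 under voom (-2.87), for which leaving out ref6c 24 h replicate 2 gave -0.85. AT3G53040 and AT2G42560 from 6 to 24 h kept their calls in every setting tried, and SAG21 from 0 to 6 h lost it under voom (-1.18). LEA3 from 6 to 24 h kept its call wherever it was tested. It passed the filter only through Col at 6 h, and with a Col 6 h library left out it was not tested.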

How the results depend on the processing

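Counts of called members moved by less than 1.5 times, in every setting tried, for 9 of the 13 comparisons. With only the groups compared fitted, 3 members were called at 0 h against 7, 15 at 6 h against 9, and 6 in the 0 to 6 h interaction against 3. The 24 to 48 h interaction gave 1 call with a pseudocount of 0.1 and 3 with no filter, with median-of-ratios scaling, with rescaling, with only the groups compared and with voom, against 5. Replicate numbers showed no common pairing over all groups pooled. Deviations of same-numbered libraries correlated at -0.26 to 0.394 (median 0.00612, 84 pairs) and of other pairs at a median of -0.00851. Most of these pairs span different times, so the medians cannot tell whether libraries were paired at a single time. At 0 h COR47, ERD10 and ERD14 were highest in replicate 2 of both genotypes. With the replicate block the 0 to 6 h interaction gave 5 calls, and 2 of 348 called member differences were lost.

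With single libraries left out, the counts ran from 4 to 9 at 0 h, 7 to 11 at 6 h, 33 to 35 at 24 h and 36 to 39 at 48 h. In the Col steps they ran from 37 to 40, 40 to 41 and 35 to 37, in the ref6c steps from 36 to 38, 33 to 33 and 33 to 37, and in the interactions from 1 to 6, 24 to 30 and 1 to 7. Of 8334 such checks of a called member, 133 lost the call and none turned.

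Directions turned from 0 to 6 h, where the median gene shifted by 1.23 in Col and 1.29 in ref6c. Under median-of-ratios scaling the Col step became -1.52 for AT2G46140, -1.33 for AT2G44060, -1.16 for ECP63, -1.38 for AT5G53270, -0.43 for HIRD11 and -0.43 for DI21. The ref6c step became -1.72, -1.13, -0.94, -0.79, -0.97 and -1.23 in the same order. Rescaling gave -0.16, -0.10 and -0.02 in Col for AT2G46140, AT2G44060 and AT5G53270, and voom gave -0.25, -0.19 and -0.10. In ref6c AT2G46140 became -0.16 on rescaling and -0.28 under voom. The scaling itself sets these shifts. TPM of long-intron genes is understated, up to 2.0 times for LEA7, which also shares 297 bases with AT1G52695 on the other strand. Values under about 1 TPM rest on few reads.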
